A study of Mus musculus with 14 samples.

Results

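Slc38a4 and 4 other genes known in mice for noncanonical imprinting, Sfmbt2, Gab1, Smoc1 and Jade1 (also called Phf17), were followed in skin cells with and without a conditional knockout of G9a. They were 5 of the 17097 genes measured and had 12 of the 45141 probe sets on the arrays, 2 for Slc38a4, 2 for Sfmbt2, 3 for Gab1, 1 for Smoc1 and 4 for Jade1. Each gene was represented by its probe set with the highest mean over the 14 arrays, and no filter on dim signals was used, so all 5 were kept. Slc38a4 was chosen by its higher signals in cKO than in WT arrays of this same series, so its values are described without a test. The other 4 genes joined it by their known mode of imprinting, also with results of these data in view.

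The arrays measured RNA of mouse epidermis in homeostasis at an age of 15 weeks. G9a, encoded by Ehmt2, is an enzyme that methylates lysine 9 of histone H3. The groups were G9a cKO bulge cells (4 arrays), G9a WT bulge cells (3 arrays), G9a cKO interfollicular epidermis (IFE) cells (4 arrays) and G9a WT IFE cells (3 arrays), where cKO stands for conditional knockout. The bulge is the part of the hair follicle that houses its stem cells, and the IFE is the epidermis between follicles. The Cre line and promoter, the strain, how the cells were separated, and whether RNA of several animals was pooled are not stated in the labels. The labels do not say that replicates came from separate animals, so p-values measure the spread between these samples, which may be technical.

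In noncanonical imprinting, the maternal copy of a gene carries the trimethyl mark that Polycomb complexes place on histone H3 (H3K27me3) from the egg instead of DNA methylation, and only the paternal copy is read in the early embryo. Most such genes lose this bias as development goes on and keep it mainly in extraembryonic tissue such as the placenta. The arrays sum both parental copies, so no value here tells which copy gave the RNA.

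The upstream windows of Slc38a4 and of Gab1 are shown because the results turn on Slc38a4, and Gab1 serves as a comparison with more CpG. Each run is the 250 bases before an annotated start, read 5′ to 3′ on the minus strand of GRCm38.p6 from RefSeq, with every CpG in capitals. The windows are chr15:97055957-97056206, chr15:97031214-97031463 and chr15:97020360-97020609 for Slc38a4 and chr8:80880520-80880769 for Gab1.
Slc38a4 start 1: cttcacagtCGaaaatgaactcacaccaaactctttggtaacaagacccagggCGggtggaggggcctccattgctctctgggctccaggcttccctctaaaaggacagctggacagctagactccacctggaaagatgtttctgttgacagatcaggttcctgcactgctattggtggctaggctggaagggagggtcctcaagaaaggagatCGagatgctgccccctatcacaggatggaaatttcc
Slc38a4 start 2: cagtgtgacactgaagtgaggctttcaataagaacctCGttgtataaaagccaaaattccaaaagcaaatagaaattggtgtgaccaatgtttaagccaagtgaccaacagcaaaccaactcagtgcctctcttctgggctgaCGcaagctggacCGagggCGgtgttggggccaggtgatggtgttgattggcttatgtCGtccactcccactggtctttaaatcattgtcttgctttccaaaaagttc
Slc38a4 start 3: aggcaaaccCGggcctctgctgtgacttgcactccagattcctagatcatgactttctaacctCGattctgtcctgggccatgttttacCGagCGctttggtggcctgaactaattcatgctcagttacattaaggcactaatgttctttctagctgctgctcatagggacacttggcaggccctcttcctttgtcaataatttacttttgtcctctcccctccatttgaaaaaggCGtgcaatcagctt
Gab1 start 1: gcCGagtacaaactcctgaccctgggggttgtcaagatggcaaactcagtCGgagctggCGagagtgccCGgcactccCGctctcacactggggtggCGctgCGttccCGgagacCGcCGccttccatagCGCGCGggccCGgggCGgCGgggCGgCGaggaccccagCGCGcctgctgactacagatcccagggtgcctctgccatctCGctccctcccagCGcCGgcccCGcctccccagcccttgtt

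The Slc38a4 windows held 3, 5 and 5 CpG, below the median of 6 over the 32851 windows in the RefSeq table. The windows of the other members held more, with 24 and 25 CpG for Gab1, 8 and 15 for Sfmbt2 and 6 to 35 for Jade1. The letters CCAAT, searched on both strands, occurred 1 time in the first Slc38a4 window, 3 times in the second and not in the third, and 33.85% of all windows held them. TATAAA, also searched on both strands, occurred 1 time in the second Slc38a4 window and in 12.37% of all windows. Entries were found for 4 of the 5 members, with 11 windows in all, and none for Smoc1.

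The label check, the depth of the arrays and the arrays that stood apart bear on every value below. The median log2 signal of an array lay between 5.76 and 5.84, and arrays have no read depth, so their number limits the precision. One Ehmt2 probe set read 5.85 to 6.02 in bulge cKO and 9.51 to 9.69 in bulge WT, and 5.95 to 6.09 in IFE cKO and 9.59 to 9.78 in IFE WT. The other Ehmt2 probe set read 7.84 to 8.05 on all arrays, and the labels do not say which exons were deleted. All 13 bulge markers passed the test as higher in bulge than in IFE cells in WT skin. Their mean log2 signal was 10.42, 9.58, 9.75 and 10.53 in bulge cKO replicates 1 to 4, against 10.57 to 10.72 in bulge WT, and 6.88, 7.61, 7.62 and 6.91 in IFE cKO replicates 1 to 4, against 6.85 to 6.93 in IFE WT. Replicates 2 and 3 of cKO thus lay between the compartments in both, and several of the genotype and list results are also given without them.

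Slc38a4 encodes SNAT4, a sodium-coupled transporter that carries neutral amino acids into cells. Its RNA was higher in cKO than in WT cells of both compartments. The log2 signal was 9.70, 9.94, 9.76 and 9.91 in bulge cKO, against 8.26, 7.37 and 7.48 in bulge WT. In the IFE it was 9.38, 9.69, 9.55 and 9.50 in cKO, against 5.55, 4.93 and 5.56 in WT. Every cKO array lay above every WT array of its compartment, a lack of overlap shared by 18.5% of all genes in the bulge and 11% in the IFE, and the 3 IFE WT arrays lay below the array medians.

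The means were 9.83 ± 0.12 in bulge cKO (SD, n = 4) and 7.70 ± 0.48 in bulge WT (SD, n = 3), a log2 difference of 2.12 (SE 0.20), or 4.36-fold. They were 9.53 ± 0.13 in IFE cKO (SD, n = 4) and 5.35 ± 0.36 in IFE WT (SD, n = 3), a log2 difference of 4.18 (SE 0.20). The SE of each difference is from a linear model, limma, in which all groups share a single estimate of the spread. No fold is given for the IFE because its WT signal was not tested against background. Ranked by rise among all 17097 genes, Slc38a4 stood at place 19 in the bulge and at place 2 in the IFE. The difference of these effects, bulge minus IFE, was -2.06 (SE 0.28). These values chose the gene and are a description.

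The order of the mean levels was bulge cKO, IFE cKO, bulge WT and IFE WT. The step between the cKO groups was small, with a lowest bulge cKO array at 9.70 and a highest IFE cKO array at 9.69, a difference of means of 0.30. In WT cells the bulge was higher than the IFE by 2.36 on the log2 scale. The arrays of the compartments did not overlap in WT cells, as for 47.4% of all genes, or in cKO cells, as for 33%. The compartments thus lay closer together in cKO than in WT cells.

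**Figure D1:**
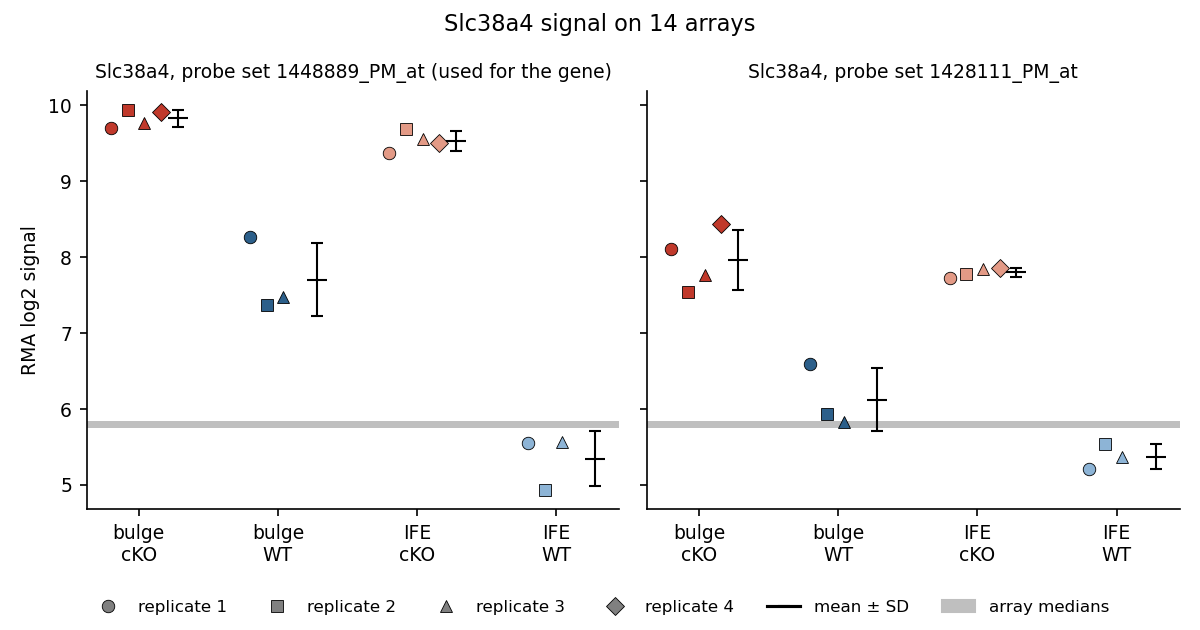
Log2 signal of both Slc38a4 probe sets in bulge cKO, bulge WT, IFE cKO and IFE WT, with a marker shape per replicate, mean ± SD as bars and the range of the array medians in grey. All cKO arrays lie above all WT arrays of their compartment on either probe set, and IFE WT lies below the grey band.

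The second Slc38a4 probe set was dimmer and gave the same order between genotypes. It read 8.11, 7.53, 7.77 and 8.44 in bulge cKO, against 6.60, 5.93 and 5.83 in bulge WT. In the IFE it read 7.72, 7.77, 7.85 and 7.85 in cKO, against 5.21, 5.54 and 5.37 in WT. The log2 differences were 1.84 in the bulge and 2.43 in the IFE, so the effects lay 0.58 apart here instead of 2.06. Between compartments, the bulge exceeded the IFE by 0.17 in cKO, where the arrays overlapped, and by 0.75 in WT. Both probe sets were higher in cKO cells, but the size of the IFE difference and of the gap between the effects depended on the probe set.

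Bulge cKO replicates 2 and 3, which stood apart by their markers, read 9.94 and 9.76 on the Slc38a4 probe set used for the gene. Replicates 1 and 4 read 9.70 and 9.91 there. On the second probe set replicates 2 and 3 were the lowest of that group, at 7.53 and 7.77, against 8.11 and 8.44 in replicates 1 and 4. Without cKO replicates 2 and 3 the log2 differences on the probe set used were 2.10 in the bulge and 4.09 in the IFE. Markers of several cell types moved with genotype. Of all genes, 3.84% were called in the bulge and 0.497% in the IFE. Without cKO replicates 2 and 3, 0.468% were called in the bulge. The mean of the 7 Langerhans and antigen presenting cell markers was 6.51 to 7.29 in bulge cKO and 5.94 to 6.16 in bulge WT, with 4 of 7 markers called higher and 0 of 7 without cKO replicates 2 and 3, and 6.69 to 7.13 in IFE cKO and 6.28 to 6.83 in IFE WT, with 0 of 7 called. The mean of the 12 markers of differentiating epidermis was 7.42 to 9.04 in bulge cKO and 6.83 to 7.25 in bulge WT, with 4 of 12 called higher and 1 of 12 without cKO replicates 2 and 3, and 8.95 to 9.25 in IFE cKO and 8.30 to 8.93 in IFE WT, with 0 of 12 called. Without these replicates the median bulge difference was 0.53 for the Langerhans list and 0.69 for differentiating epidermis, against 0.76 and 1.34 with them. The mean of the 8 basal keratinocyte markers was 11.24 to 11.41 in bulge cKO and 11.42 to 11.56 in bulge WT. In the IFE it was 11.27 to 11.42 in cKO and 11.49 to 11.52 in WT. In the bulge 2 of 8 basal keratinocyte markers were called lower and 1 of 5 endothelial markers higher, both 0 without these replicates, and in the IFE none. In both compartments the means of the differentiating epidermis, basal keratinocyte and T cell markers did not overlap between genotypes. Those of the Langerhans and antigen presenting cell markers and of the bulge stem cell markers did not overlap in the bulge. All 13 bulge stem cell markers were lower in bulge cKO, by log2 differences of -1.22 to -0.19, with 0 of 13 called. Their median difference in the bulge was -0.52, and -0.12 without cKO replicates 2 and 3. Among single genes, 18.5% did not overlap in the bulge and 11% in the IFE. The T cell markers had 0 of 6 called in either compartment. The mean of the T cell markers was 5.66 to 6.78 in bulge cKO and 5.36 to 5.64 in bulge WT, and 6.33 to 6.85 in IFE cKO and 5.96 to 6.30 in IFE WT. Their median log2 difference was 0.85 in the bulge (0.49 without cKO replicates 2 and 3) and 0.32 in the IFE. No call was made among the fibroblast, melanocyte, adipocyte and skeletal muscle markers. The part of the moving markers in the Slc38a4 values was not tested, and in bulk samples fewer cells of a type and less RNA per cell cannot be told apart.

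None of the other 4 genes passed the test between cKO and WT. The test was limma's on log2 signals, with Benjamini-Hochberg adjustment across the 17097 genes and a threshold of 0.05. In the bulge 0 of 4 were called, where 3.84% of all genes were, and 4390 genes had an unadjusted p under 0.05. In the IFE 0 of 4 were called, where 0.497% of all genes were, and 1876 had an unadjusted p under 0.05. The difference of the effects called 0 of 4 as well, with a background of 0.105% and 2404 genes at an unadjusted p under 0.05.

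**Figure D2:**
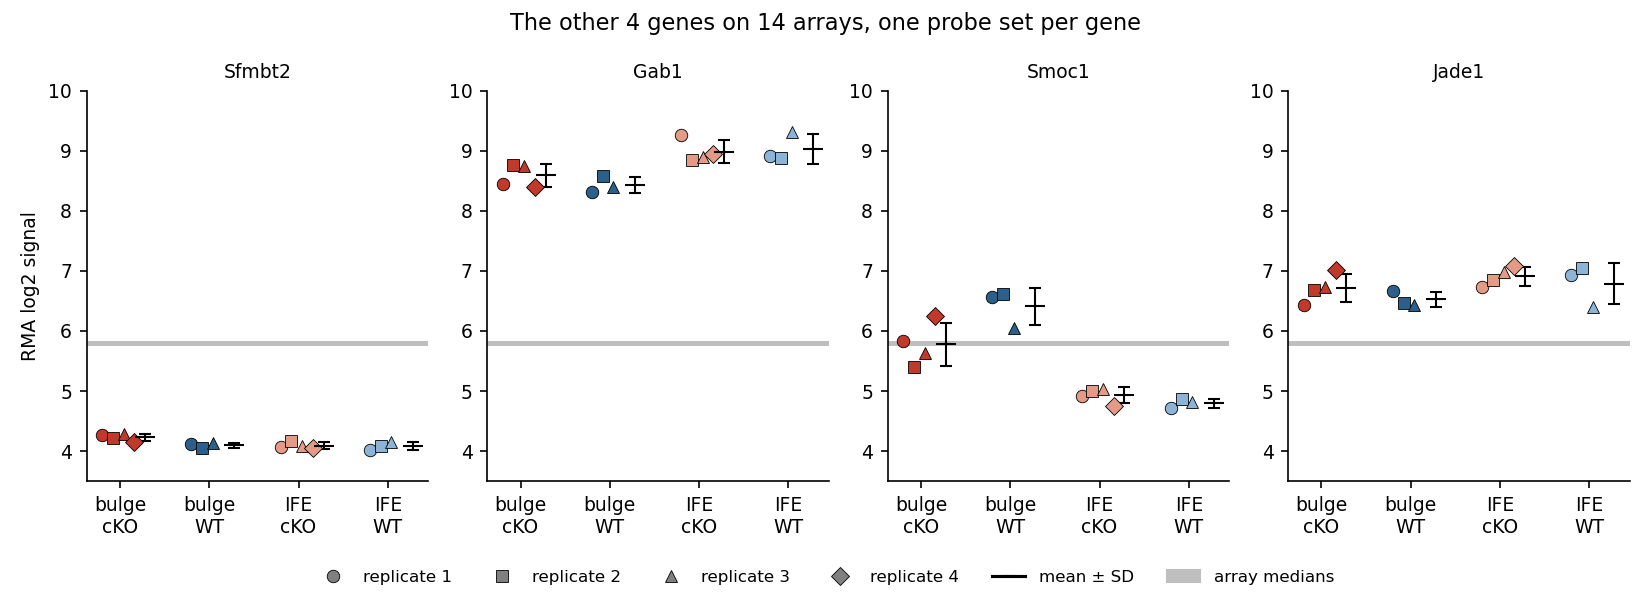
Log2 signal of Sfmbt2, Gab1, Smoc1 and Jade1 on 14 arrays, one probe set per gene, with a marker shape per replicate, mean ± SD as bars and array medians in grey. Sfmbt2 lies far below the grey band everywhere, and Smoc1 is higher in bulge than in IFE cells, where it lies below the band.

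Sfmbt2 encodes a Polycomb group protein with MBT domains that bind methylated histones. Its log2 signal was 4.27, 4.22, 4.28 and 4.16 in bulge cKO, against 4.12, 4.04 and 4.13 in bulge WT. In the IFE it was 4.07, 4.17, 4.08 and 4.06 in cKO, against 4.02, 4.09 and 4.15 in WT. All arrays lay far below their medians, and whether such signals lie above background was not tested. The bulge arrays did not overlap, as for 18.5% of all genes, and the log2 difference was 0.14 (SE 0.05, limma adjusted p = 0.106), while that in the IFE was 0.01 (adjusted p = 0.98). The second Sfmbt2 probe set read 3.82 to 3.97 on all arrays. Its genotypes overlapped in the bulge, with a log2 difference of 0.07.

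Gab1 encodes a docking protein that links growth factor receptors such as MET and EGFR to SHP2 and PI3 kinase. Its log2 signal was 8.44, 8.77, 8.74 and 8.40 in bulge cKO, against 8.31, 8.57 and 8.39 in bulge WT. In the IFE it was 9.26, 8.85, 8.89 and 8.94 in cKO, against 8.90, 8.87 and 9.31 in WT. The genotypes overlapped in both compartments, with log2 differences of 0.16 in the bulge (95% interval -0.14 to 0.46, limma adjusted p = 0.470) and -0.04 in the IFE (adjusted p = 0.955). The bulge value was -0.01 without cKO replicates 2 and 3.

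Smoc1 encodes a secreted protein of the SPARC family that modulates BMP signalling. Its log2 signal was 5.83, 5.40, 5.63 and 6.25 in bulge cKO, against 6.57, 6.61 and 6.05 in bulge WT. In the IFE it was 4.92, 5.0, 5.04 and 4.75 in cKO, against 4.71, 4.86 and 4.82 in WT. All IFE arrays lay below their medians here, and whether these signals lie above background was not tested. In the bulge the groups overlapped, with replicate 4 of cKO above replicate 3 of WT. The means were 5.78 ± 0.36 in bulge cKO (SD, n = 4) and 6.41 ± 0.31 in bulge WT (SD, n = 3). The log2 difference was -0.63 in the bulge (SE 0.18, 95% interval -1.02 to -0.24, limma adjusted p = 0.0653) and 0.13 in the IFE (adjusted p = 0.867). Without cKO replicates 2 and 3 the bulge value was -0.37 (adjusted p = 0.590), whereas without cKO replicate 4 it was -0.79 (adjusted p = 0.00964) and without WT replicate 3 -0.81 (adjusted p = 0.0360). The bulge cKO arrays with the lowest bulge markers, replicates 2 and 3, also had the lowest Smoc1 signals of that group, and the part of these markers in the Smoc1 value was not tested.

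Jade1 encodes a PHD finger protein that serves as a scaffold of the HBO1 (KAT7) histone acetyltransferase complex. Its log2 signal was 6.42, 6.69, 6.73 and 7.01 in bulge cKO, against 6.67, 6.47 and 6.44 in bulge WT. In the IFE it was 6.72, 6.84, 6.98 and 7.08 in cKO, against 6.93, 7.04 and 6.39 in WT. The arrays overlapped in both compartments, with log2 differences of 0.19 in the bulge (limma adjusted p = 0.473) and 0.12 in the IFE (adjusted p = 0.865). The 3 other Jade1 probe sets had log2 differences between -0.07 and 0.16 in the bulge and between -0.04 and 0.10 in the IFE.

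**Figure D3:**
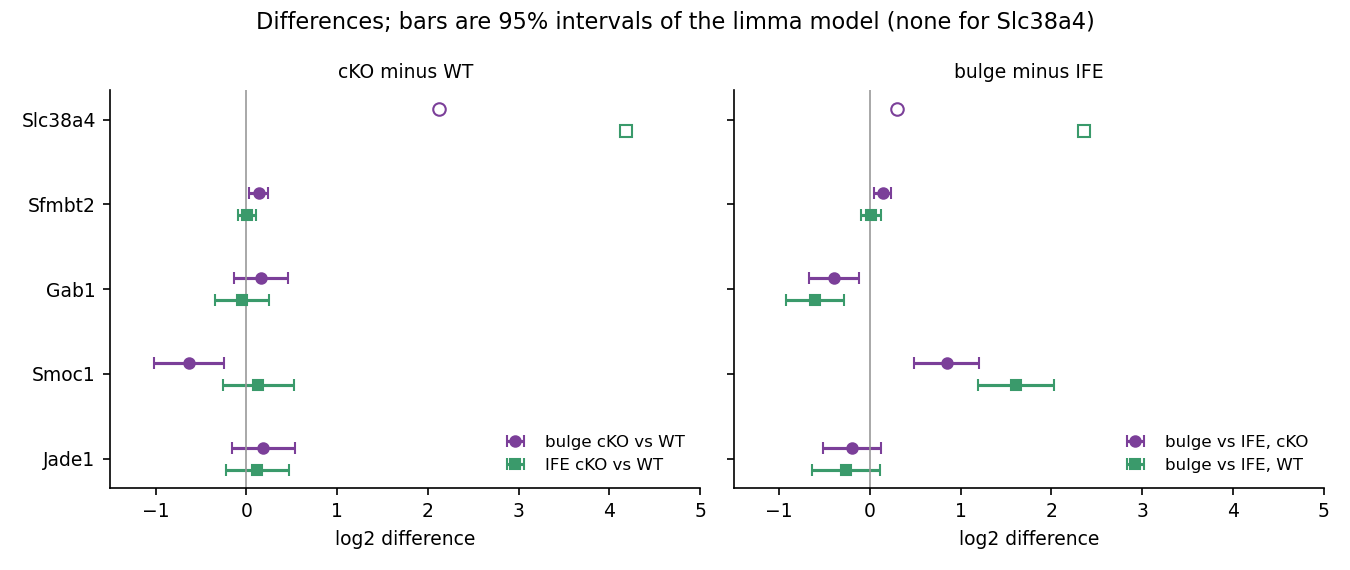
Log2 differences of the 5 genes, cKO minus WT on the left and bulge minus IFE on the right, with 95% intervals of the limma model except for Slc38a4. Slc38a4 lies at 2.12 and 4.18 between genotypes, and the other 4 genes lie between -0.63 and 0.19.

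**Figure D4:**
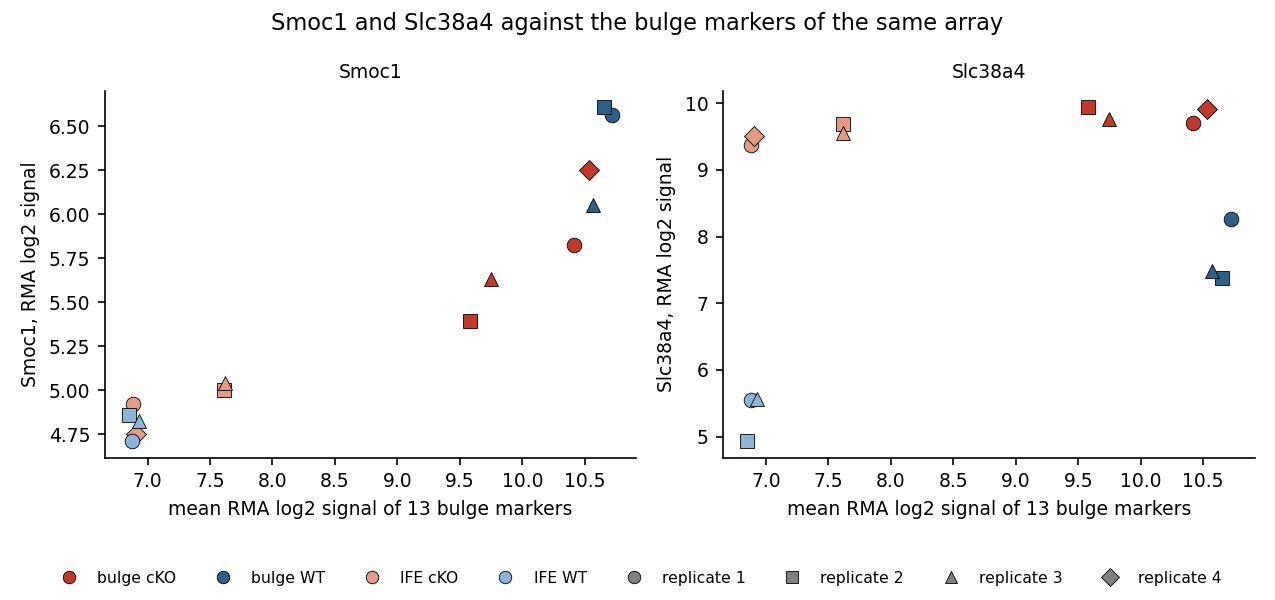
Slc38a4 and Smoc1 signal of each array against the mean log2 signal of 13 bulge markers on the same array. Replicates 2 and 3 of cKO lie between the compartments on the horizontal axis. Slc38a4, drawn for the probe set used for the gene only, lies between 9.38 and 9.94 on all 8 cKO arrays.

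Between compartments, 3 of the 4 tested genes were called in cKO cells, where 32.1% of all genes were called, and 2 of 4 in WT cells, where 35.1% were. Smoc1 was higher in the bulge, by 0.85 on the log2 scale in cKO cells (limma adjusted p = 0.00262) and by 1.61 in WT cells (SE 0.19, adjusted p = 6.52e-05). All its IFE signals lay below the array medians. Gab1 was lower in the bulge, with log2 differences of -0.40 in cKO cells (adjusted p = 0.0306) and -0.60 in WT cells (SE 0.15, adjusted p = 0.00649). For both genes the arrays of the compartments did not overlap, as for 33% of all genes in cKO and 47.4% in WT cells. The other 2 Gab1 probe sets also gave negative differences, from -0.70 to -0.52 over both genotypes. The Gab1 call in cKO cells was lost after cyclic loess (-0.30, adjusted p = 0.155) and without bulge cKO replicate 1 or 4 or IFE cKO replicate 1 or 4 (adjusted p up to 0.0873). Without cKO replicates 2 and 3 of both compartments together it held, at a larger -0.68 (adjusted p = 0.0181), and the Smoc1 difference in cKO cells was 1.20 (adjusted p = 0.00342).

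Sfmbt2 had log2 differences of 0.14 in cKO cells (limma adjusted p = 0.0293) and 0.01 in WT cells (adjusted p = 0.901), at signals far below the array medians. Its call in cKO cells was lost with each array centred on its median (0.09, adjusted p = 0.103). It was lost too without cKO replicates 2 and 3 (0.15, adjusted p = 0.144). Jade1 had log2 differences of -0.19 in cKO cells (adjusted p = 0.340) and -0.26 in WT cells (adjusted p = 0.269).

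The genes next to Slc38a4 on the chromosome had small differences. In chromosome order they were Gm41408, Slc38a1 and Slc38a2 on one side and Amigo2, Pced1b and Rpap3 on the other. Slc38a1 and Slc38a2 encode related transporters of neutral amino acids, and their log2 differences in the bulge were 0.33 (limma adjusted p = 0.198) and -0.07 (adjusted p = 0.772). In the IFE they were 0.12 (adjusted p = 0.849) and 0.04 (adjusted p = 0.955). The other 4 neighbours had log2 differences from -0.31 to 0.08 in the bulge and from -0.04 to 0.04 in the IFE, and none was called. Among the 30 neighbours of all 5 genes, 1 was called in the bulge and 0 in the IFE, where 3.84% and 0.497% of all genes were. The called gene was Larp1b near Jade1 (log2 difference 0.98, adjusted p = 0.0462), which encodes an RNA-binding protein of the La family. Its value was 0.76 (adjusted p = 0.371) without cKO replicates 2 and 3.

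**Figure D5:**
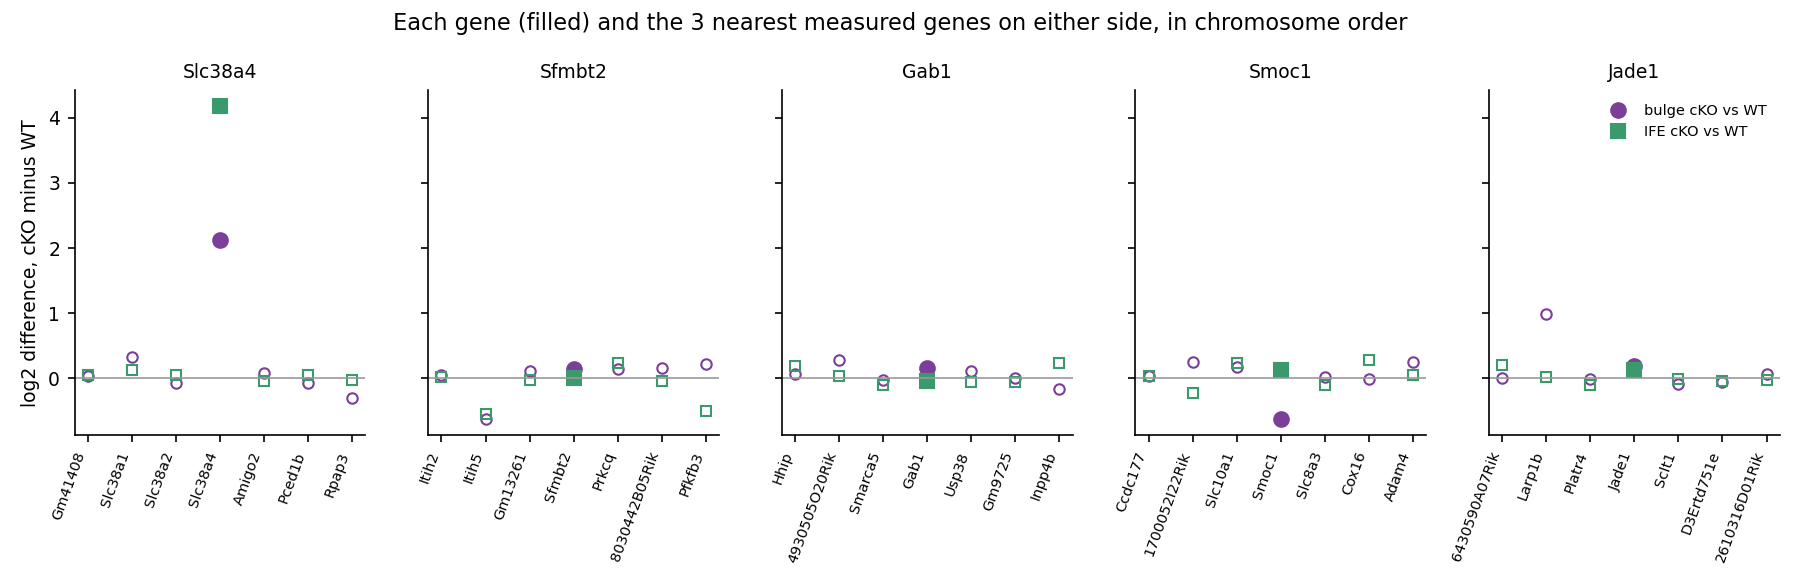
Log2 difference, cKO minus WT, of each of the 5 genes (filled) and of the 3 nearest measured genes on either side (open), in chromosome order, in bulge and IFE cells. Slc38a4 stands at 2.12 and 4.18 while its 6 neighbours lie between -0.31 and 0.33.

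The pathways of the 5 genes were described by 8 lists with 109 genes, of which 98 were measured. In the bulge 5 of 98 were called between cKO and WT, 1 higher and 4 lower, beside 3.84% of all genes. In the IFE 0 of 98 were called, beside 0.497% of all genes. The H3K27 methylation machinery had 1 of 12 called in the bulge, Aebp2, a cofactor of Polycomb repressive complex PRC2 (log2 difference 0.76, limma adjusted p = 0.0485). The SLC38 family without Slc38a4 had 1 of 8 called lower, Slc38a10 (-0.23, adjusted p = 0.0471). Of 10 relatives and partners of SFMBT2, 2 were called lower, L3mbtl3 (-0.47, adjusted p = 0.0375) and Scmh1 (-0.79, adjusted p = 0.0376). Of 19 SMOC1 relatives and BMP pathway genes, 1 was called lower, Nog, which encodes the BMP antagonist noggin (-1.12, adjusted p = 0.0163).

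All 5 of these calls were lost without cKO replicates 2 and 3, in a fit with 4 fewer arrays that called 0.468% of all genes. Their limma adjusted p then ran from 0.222 for L3mbtl3 to 0.493 for Aebp2. The log2 differences were then -0.46 for L3mbtl3, -0.22 for Slc38a10, 0.62 for Aebp2, -0.85 for Nog and -0.51 for Scmh1. No gene was called in the bulge among 12 H3K9 and imprint silencing factors, 15 other amino acid transporters, 13 relatives and partners of GAB1 or 9 of JADE1. The medians of the 8 lists lay between -0.15 and -0.06 in the bulge and between -0.09 and 0.07 in the IFE, against 0.01 and -0.01 over all genes.

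Genes imprinted through DNA methylation were set beside the 5 members, with 20 of 26 measured. In the bulge 2 were called higher and 2 lower, beside 3.84% of all genes, with a median log2 difference of -0.04. Snrpn, which encodes a spliceosomal protein and is read from the paternal copy, was higher by 0.66 in the bulge (limma adjusted p = 0.00200) and by 1.37 in the IFE (adjusted p = 3.48e-06). Ndn, the paternally read gene of necdin, was higher in the bulge by 0.41 (adjusted p = 0.0401), and Sgce, a gene of the sarcoglycan family, was lower (-0.95, adjusted p = 0.0327). The remaining call was Grb10, an imprinted adaptor of growth factor receptors (-0.56, adjusted p = 0.0452), named here after its value was seen. Without cKO replicates 2 and 3 Snrpn (0.69, adjusted p = 0.019) and Ndn (0.58, adjusted p = 0.024) were still called in the bulge and Sgce (-0.67, adjusted p = 0.303) and Grb10 (-0.48, adjusted p = 0.467) were not. In the IFE Snrpn was the only one of the 20 called, beside 0.497% of all genes. With single arrays left out, the bulge call of Snrpn held in 14 of 14 fits and that of Ndn in 3, and Ndn averaged 4.08 in bulge cKO and 3.68 in bulge WT, below the array medians.

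Between compartments the same 8 lists had 46 of 98 genes called in cKO cells, 16 higher and 30 lower in the bulge, and 57 of 98 in WT cells, 28 higher and 29 lower, beside 32.1% and 35.1% of all genes. Without cKO replicates 2 and 3, 47 of 98 were called in cKO cells, beside 24.5% of all genes. In WT cells the SLC38 family had 5 of 8 higher in the bulge and 0 lower, among them Slc38a9, a lysosomal transporter that signals amino acid supply to mTORC1 (1.15), and Slc38a6 (0.65). Of 15 other amino acid transporters 6 were higher and 4 lower, and the lower ones included Slc7a1 (-2.01) and Slc7a5 (-1.79), carriers of cationic and of large neutral amino acids. The SMOC1 and BMP list had 8 of 19 higher and 5 lower, with the BMP antagonist Grem1 at 5.24, the BMP target Id2 at 3.14 and Sparc, a relative of Smoc1, at 1.42. Of 13 GAB1 partners 3 were higher and 5 lower, with Pik3r1 at 1.72 and Erbb3 at -1.28. Ezh2, the methyltransferase of PRC2, had a log2 difference of -1.18 and its paralogue Ezh1 one of 1.43.

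The genes whose signals followed Slc38a4 most closely over the 14 arrays, by Pearson r, were Zfp239 (0.973), Minar2 (0.972), Snrpn (0.963), Snurf (0.952) and Efcab1 (0.950). The 14 arrays share 4 groups, so r mostly reflects the group means. After subtracting each compartment's mean, the leading genes were Snrpn (0.983), Zfp239 (0.978), Tspan8 (0.977), Adgrv1 (0.972) and Minar2 (0.968). Snrpn averaged 9.38 in bulge cKO and 8.73 in bulge WT, and 9.01 in IFE cKO and 7.64 in IFE WT. Minar2 averaged 8.89 in bulge cKO and 5.50 in bulge WT, and 7.79 in IFE cKO and 3.45 in IFE WT. Snrpn and Snurf share one transcript, so their probe sets may read the same RNA.

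The other members had r with Slc38a4, compartment means subtracted, of 0.371 for Sfmbt2, 0.326 for Jade1, 0.056 for Gab1 and -0.175 for Smoc1. Subtraction leaves mostly the genotype difference that chose Slc38a4, so these r values add little to the genotype comparisons. With compartment means subtracted and gene models without a proper name passed over, the genes nearest to Smoc1 were Col4a1, a basement membrane collagen (0.979), Vwa1 (0.963) and Trp53i13 (0.963). Those nearest to Gab1 were Cdh1, which encodes E-cadherin (0.950), Rap2b (0.949) and Nup210l (0.948). Pex7 (0.950), Pet100 (0.940) and Psmd14 (0.939) were nearest to Jade1, and Fbp2 (0.941), Foxp2 (0.909) and Nol4 (0.908) to Sfmbt2, where 2 gene models were passed over before Foxp2.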

How the data were processed

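Per the labels, RNA extracted with TRizol was turned into amplified, biotin-tagged cDNA for Affymetrix arrays. The authors deposited 1 log2 signal for each probe set and array, made with RMA, per the submitters' processing notes, which name no version. RMA as a method corrects background, equalises the distribution of signals between arrays and summarises probes, so a shift shared by most genes cannot be seen. All 14 array columns were matched to their samples.

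Of 45141 probe sets, 28898 had 1 gene symbol, 551 several and 15692 none. Each of 17097 genes took its probe set with the highest mean, with no filter on dim probe sets. A model with 1 mean per group was fitted with limma 3.58.1 in R 4.3.3 (residual degrees of freedom 10), tested two-sided and tested on simulated data. P-values were adjusted over all genes, with a threshold of 0.05. Intervals are 95%.

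The members and lists were chosen with earlier results of these data known. Named were the members, 3 neighbours on either side, up to 3 called genes per list with the smallest p, and the 5 (Slc38a4) or 3 genes most alike. Alternatives were other normalisations, probe set choices, a dim filter, variance models, array weights, fewer samples, a replicate block and another threshold. Leaving out cKO replicates 2 and 3 together was listed with earlier results known, and its counts over the lists were added after seeing the data. Figures were drawn with matplotlib 3.10.9.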

Additional observations from a re-analysis of the deposited data

Results flagged for a closer look

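The mean log2 signal of the 6 skeletal muscle markers was 5.32 in bulge cKO replicate 4, against 5.41 to 5.42 in the other 3 arrays of that group, which set this array apart by Dixon's test. It was 1 of 44 groups of 4 arrays tested, and chance alone sets apart about 1 in 20. No muscle marker was called between cKO and WT in either compartment.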

How the results depend on the processing

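The rise of Slc38a4 in cKO cells kept its direction under every alternative run. With single arrays left out, its log2 difference was 1.96 to 2.40 in the bulge, 3.97 to 4.29 in the IFE, and -2.22 to -1.78 for bulge minus IFE. Between compartments it was 0.25 to 0.35 in cKO and 2.08 to 2.52 in WT cells. With the mean of its probe sets it was 3.30 in the IFE, -1.32 for the difference of effects and 1.55 between compartments in WT, since the second probe set had a smaller range. Sfmbt2 and Smoc1 were too dim to be kept by the filter on dim probe sets and have no value there.

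Counts of called genes moved most. In the bulge 656 genes were called between cKO and WT, against 408 with the dim filter, 1646 probe sets tested singly, 72 with only the groups compared, 80 without cKO replicates 2 and 3, 2015 at an adjusted p under 0.1, and 116 to 2553 with single arrays left out. The lowest of these was without bulge WT replicate 1 and the highest without bulge cKO replicate 4. In the IFE 85 were called, against 52, 173, 48, 41, 176 and 38 to 107 in the same order. For the difference of effects 18 were called, against 5 with the dim filter, 65 probe sets, 3 without cKO replicates 2 and 3, 49 at an adjusted p under 0.1, and 3 to 240 with single arrays left out. Between compartments the 5496 genes in cKO became 14583 probe sets and 4096 to 5795 with single arrays left out, and the 5998 in WT became 15771 probe sets and 4801 to 6196. The cause of these shifts was not tested.

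Array weights did not converge by the default method. Estimated gene by gene, a choice made after seeing the data, they ran from 0.298 to 5.93, highest for bulge cKO replicate 3, and called 7006 genes in the bulge, 1490 in the IFE, 4011 for the difference of effects and 9158 between compartments in cKO. Calls were then gained in the bulge by Sfmbt2 (0.18, limma adjusted p = 0.00397), Gab1 (0.27, adjusted p = 0.0373) and Smoc1 (-0.80, adjusted p = 0.00101). Smoc1 also gained one for the difference of effects (-1.01, adjusted p = 0.00555), and Jade1 between compartments in cKO (-0.23, adjusted p = 0.0279) and WT (-0.41, adjusted p = 0.0124).

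For the other members, the bulge difference of Smoc1 (-0.63) passed an adjusted p under 0.1 and was -0.81 to -0.51 with single arrays left out, passing 0.05 without cKO replicate 4 or WT replicate 3. That of Sfmbt2 was 0.11 to 0.16 and passed without cKO replicate 4 (limma adjusted p = 0.0447). Differences near 0 changed sign. Without cKO replicates 2 and 3, Gab1 was -0.0081 in the bulge, 0.072 in the IFE and -0.080 for the difference of effects, Sfmbt2 was -0.024 in the IFE, and Slc38a2 was 0.13 in the bulge and -0.0050 in the IFE. Sfmbt2 in the IFE was -0.0084 with median centring and -0.0033 with the mean of its probe sets. With single arrays left out, the IFE values were -0.026 to 0.040 for Sfmbt2, -0.13 to 0.097 for Gab1 and -0.077 to 0.25 for Jade1, the bulge value of Slc38a2 was -0.23 to 0.031, and the difference of effects of Jade1 was -0.060 to 0.26. Slc38a2 in the bulge was 0.038 on its probe set with the largest interquartile range.

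Between compartments in cKO cells, Gab1 lost its call with cyclic loess (-0.30) and had -0.46 to -0.31 with single arrays left out, where bulge cKO replicates 1 or 4 and IFE cKO replicates 1 or 4 ended the call. Sfmbt2 lost its call with median centring (0.090), the mean of its probe sets (0.084), only the groups compared (0.14) and without cKO replicates 2 and 3 (0.15), and had 0.12 to 0.16 with single arrays left out, where bulge cKO replicates 1 or 3 and IFE cKO replicates 1, 3 or 4 ended it. In WT cells Sfmbt2 was -0.029 with median centring, -0.022 with the mean of its probe sets and -0.023 to 0.044 with single arrays left out. Jade1 in WT cells was -0.46 to -0.14 and passed without IFE WT replicate 3 (limma adjusted p = 0.0362). The calls of Smoc1 in both genotypes and of Gab1 in WT cells held with any single array left out.

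Same-numbered samples correlated at -0.616 to 0.251 in their deviations from the group means, so the numbers were not taken as pairs. With the replicate block, 412 genes were called in the bulge, 33 in the IFE and 2 for the difference of effects. Gab1 between compartments in cKO had -0.40 (limma adjusted p = 0.0552), and no other member changed its call. Among the other genes named between cKO and WT in the bulge, Aebp2, Slc38a10, L3mbtl3, Sgce, Grb10, Ndn and Larp1b lost their calls under the block (adjusted p 0.0531 to 0.0806), as did L3mbtl3 between compartments in WT cells (adjusted p = 0.0568).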
